A study of Mus musculus with 4 samples.

Results

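The cells described here were those of the P2 dorsal ventricular-subventricular zone (V-SVZ) in which at least 1 transcript molecule of Nkx2-3 was counted. Molecules were counted by unique molecular identifiers (UMIs), and cells were kept when they had 2000 to 8000 detected genes and mitochondrial UMIs under 10%. Nkx2-3 was found in 71 of 4027 P2 cells (1.76%, 95% exact binomial interval 1.38 to 2.22%), out of 19860 cells in all 4 libraries, and the other 3956 P2 cells served as the reference. Dcx and Gad2, markers of immature GABAergic neurons, were found together in 64 of the 71 cells. The genes furthest above expectation included ones known from striatal projection neurons, such as Adora2a, while 18 of the 71 cells had none of the 25 leading genes. The study profiled microdissected dorsal subventricular zone of wild-type OF1 mice by single-cell RNA sequencing at P2 (1 library, 2 mice pooled), P12 (2 libraries) and P22 (1 library). No treatment or genetic change was applied to any group. The P2 mice were pooled before capture, so P2 had no replicate library, no p-value could be given, and all intervals covered counting error only.

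Nkx2-3 is a homeodomain transcription factor of the NK2 class, best known for its roles in the spleen and in the vessels of gut-associated lymphoid tissue. The V-SVZ is the germinal zone along the lateral ventricles, where quiescent glial stem cells (Slc1a3) give rise to activated progenitors (Egfr), dividing cells (Mki67) and then migrating neuroblasts (Dcx). Its subpallial lineage yields GABAergic interneurons of the olfactory bulb, its pallial lineage glutamatergic neurons (Eomes), and Sox10 marks oligodendrocyte precursors. Striatal projection neurons are also GABAergic and arise before birth from the lateral ganglionic eminence, next to the postnatal V-SVZ. They mature into neurons with the dopamine receptor D1 or D2, which project along the direct and the indirect pathway of the basal ganglia.

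The Nkx2-3 gene (ENSMUSG00000044220) lies at chr19:43612325-43615892 on the plus strand of mm10 and has 2 exons in GENCODE vM21, both with coding sequence. No annotated gene overlapped it on either strand, and the nearest, the antisense lincRNA Gm20467, ended 1699 bp before its start. The 250 bases before the annotated start of Nkx2-3 and of Gpr6 and Gm14133, which were among the genes furthest above expectation, are shown. The last pair were picked from the leading genes because their windows share a motif with that of Nkx2-3. Capitals mark every match on either strand to 5 motifs: the NK2-type site CAAGTG, the CCAAT box, the GC box GGGCGG, the cAMP response core TGACGT and the nuclear receptor motif AGGTCA. Overlapping matches were kept, and sequences are from RefSeq (GRCm38.p6), 5′ to 3′ on the strand of each gene.
Nkx2-3, chr19:43612075-43612324, plus strand: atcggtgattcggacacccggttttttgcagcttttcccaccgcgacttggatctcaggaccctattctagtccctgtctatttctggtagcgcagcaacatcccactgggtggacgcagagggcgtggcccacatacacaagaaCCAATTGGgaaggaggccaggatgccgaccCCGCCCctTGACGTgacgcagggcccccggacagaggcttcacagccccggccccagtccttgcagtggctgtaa
Gpr6, chr10:41072291-41072540, minus strand: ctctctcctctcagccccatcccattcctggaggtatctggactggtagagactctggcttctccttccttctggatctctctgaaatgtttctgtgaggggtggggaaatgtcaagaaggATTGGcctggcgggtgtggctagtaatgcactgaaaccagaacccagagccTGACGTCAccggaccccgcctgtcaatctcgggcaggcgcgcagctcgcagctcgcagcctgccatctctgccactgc
Gm14133, chr2:149798821-149799070, minus strand: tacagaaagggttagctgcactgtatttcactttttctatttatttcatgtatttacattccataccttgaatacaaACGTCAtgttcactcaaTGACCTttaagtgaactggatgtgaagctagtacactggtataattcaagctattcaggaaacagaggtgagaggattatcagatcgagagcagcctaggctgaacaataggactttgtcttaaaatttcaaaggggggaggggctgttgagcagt
The Nkx2-3 window held CCAAT on both strands, in matches that overlap at positions -105 and -102 from the start, then the GC box at -75 and the cAMP response core at -67, and no match to the other motifs. TGACGT was found before 4 of the 20 leading genes with a window (Arhgdib, Gm14133, Gpr6 and Kctd8), beside 7.29% of 27025 genes. CAAGTG was found before 1 of these 20 (1500035N22Rik), beside 13.2% of genes. The other shares were 8 of 20 for the CCAAT box beside 37.5%, 8 of 20 for the GC box beside 35.4%, and 5 of 20 for the nuclear receptor motif beside 15.8%. These are matches of letters in a short window and were not tested.

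Some properties of the libraries bear on the results. The labels name 2 male mice at P2, but Xist, which is transcribed from the inactive X chromosome of females, was counted in 1395 of the 4027 cells, and the study's methods state that a female was included. Counts of members are therefore also given for cells with a Y-linked UMI and no Xist (45 of 2076 had Nkx2-3, 2.17%, interval 1.59 to 2.89%) and for cells with Xist and no Y-linked UMI (15 of 1244, 1.21%, interval 0.676 to 1.98%). The median depth was 17942 UMIs in the 71 cells and 14257.5 in the reference, and the share of cells with Nkx2-3 ran from 0.496% in the lowest of 10 depth classes to 3.23% in the eighth, with 2.74% in the highest. Scrublet called 42 P2 cells doublets, 1 of them with Nkx2-3 and with 15 of the 25 leading genes. Any 2 libraries shared 5 to 12 barcodes.

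Nkx2-3 itself was counted at low levels. Of the 71 cells, 48 had 1 UMI, 15 had 2, 6 had 3, 1 had 4 and 1 had 5, which is 105 UMIs in all and 1.60 CPM over the whole P2 library (exact Poisson interval 1.31 to 1.94). The 48 cells just inside the threshold had a median of 15626 UMIs. With every cell thinned to 5000 UMIs, 27 of 4003 cells (0.674%) still had an Nkx2-3 UMI. Cells of other lineages were taken as the background: 1 of 253 cells with Sox10 (0.395%, median depth 19153 UMIs), 0 of 285 cells with Eomes and no Gad1 (which allows a share of up to 1.05%, median depth 15198 UMIs) and 1 of 486 cells with Slc1a3 alone (0.206%, median depth 15787.5 UMIs).

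To ask which states the 71 cells belong to, the number of cells with each of 7 markers was set beside the number expected from reference cells of the same depth class, with 10 classes in all. A gene was called when the observed number was at least 1.5 times, or at most 1 in 1.5, of the expected number. Dcx, the microtubule-associated protein of migrating neuroblasts, was found in 68 of the 71 cells where 47.3 were expected (1.44 times, interval 1.32 to 1.49, expectation taken as fixed). Gad1, which makes GABA from glutamate, was found in 31 cells where 27.4 were expected (1.13 times, interval 0.828 to 1.45), so no departure was detectable. The glial glutamate transporter gene Slc1a3 was found in 8 cells (42.1 expected), the EGF receptor gene Egfr in 5 (20.2 expected) and the proliferation marker Mki67 in 8 (21.9 expected), which are 0.19, 0.25 and 0.37 times expectation. Sox10 was found in 1 cell (5.71 expected) and Eomes in none (6.32 expected), and 0 of 71 cells allows a share of up to 4.23%.

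**Figure D1:**
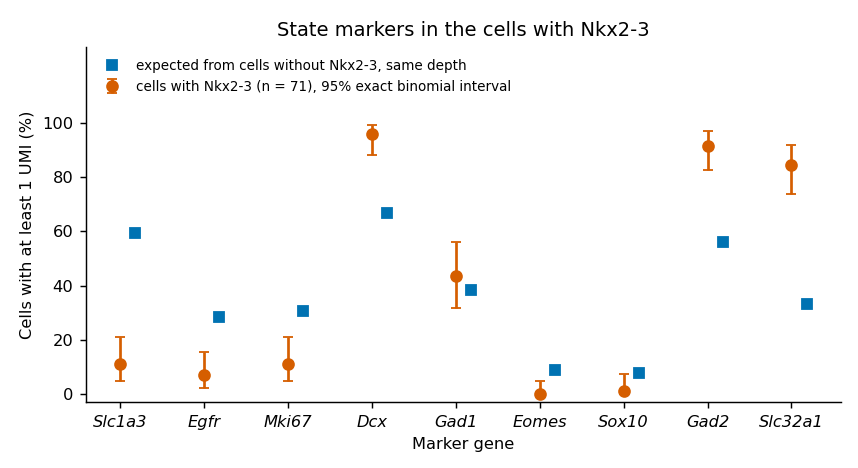
Share of the 71 P2 cells with Nkx2-3 (percent, orange points with 95% exact binomial intervals) that had at least 1 UMI of each state marker, beside the share expected from P2 cells without Nkx2-3 of the same depth (blue squares). Dcx, Gad2 and Slc32a1 lie above expectation, Slc1a3, Egfr, Mki67, Eomes and Sox10 below it, and the interval of Gad1 holds its expectation.

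The other GABAergic genes were not all like Gad1. Gad2, the second glutamate decarboxylase, was found in 65 cells (39.9 expected, 1.63 times) and Slc32a1, the vesicular GABA transporter, in 60 (23.5 expected, 2.55 times). At least 1 of Gad1, Gad2 and Slc32a1 was present in 69 of the 71 cells and in 65.6% of the reference, and 38 of the 71 had Gad2 or Slc32a1 without Gad1, beside 21.2% of the reference. Dlx6 (2.37 times) and Dlx5 (1.54 times) were found more often than expected, Dlx1 (0.73 times) and Dlx2 (0.65 times) less often, and Sp8, a factor of olfactory bulb interneurons, in 11 cells where 32.1 were expected (0.34 times). Of the 11 GABAergic genes, 4 were called higher and 3 lower, beside 14.6% and 27.8% of all 13610 genes tested, so the number lower was near that over all genes. Presence and level did not move together: Gad1 stood at 51.6 CPM against 84.8 in the reference and Gad2 at 215 against 278, while Slc32a1 stood at 115 against 45.8 CPM.

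When each P2 cell was placed in 1 state by its markers, 32 of the 71 cells fell among the 582 cells with Dcx but no Gad1, Eomes or Mki67, where 5.50% of cells had Nkx2-3 (interval 3.79 to 7.67%, 6.90 CPM). A further 29 fell among the 1346 cells with Gad1 and no Mki67 (2.15%, interval 1.45 to 3.08%, 2.29 CPM). The remaining 10 were 6 of 424 cells with Mki67 and no Gad1 or Eomes, 2 of 358 with Gad1 and Mki67, and 1 each among cells with Slc1a3 alone and with Sox10. None was among the 232 cells with Egfr and no Dcx or Mki67, which allows a share of up to 1.29%. Dcx without Slc1a3, Egfr, Mki67, Eomes or Sox10 was the pattern of 59 of the 71 cells (83.1%), beside 32.6% of the reference.

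Of 13610 genes found in at least 1% of P2 cells, 1983 (14.6%) were detected in the 71 cells at 1.5 times expectation or more and 3785 (27.8%) at 1 in 1.5 of expectation or less, with a median ratio of 0.971. A gene can pass the 1% filter through these 71 cells themselves. The 25 genes of the highest lower bound were found at 14.1 to 34.1 times expectation. Of these, Gm14133, Gpr6, Col6a1, Rtn4rl1 and Slit3 were in 26 to 38 reference cells and passed the filter only with the 71 cells counted in, so their place on the list is a description, and without them the ratios ran from 14.1 to 25.9. The reference rarely had the leading genes, in 0.657% of its cells for Col6a1 and 3.06% for Amn.

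**Figure D2:**
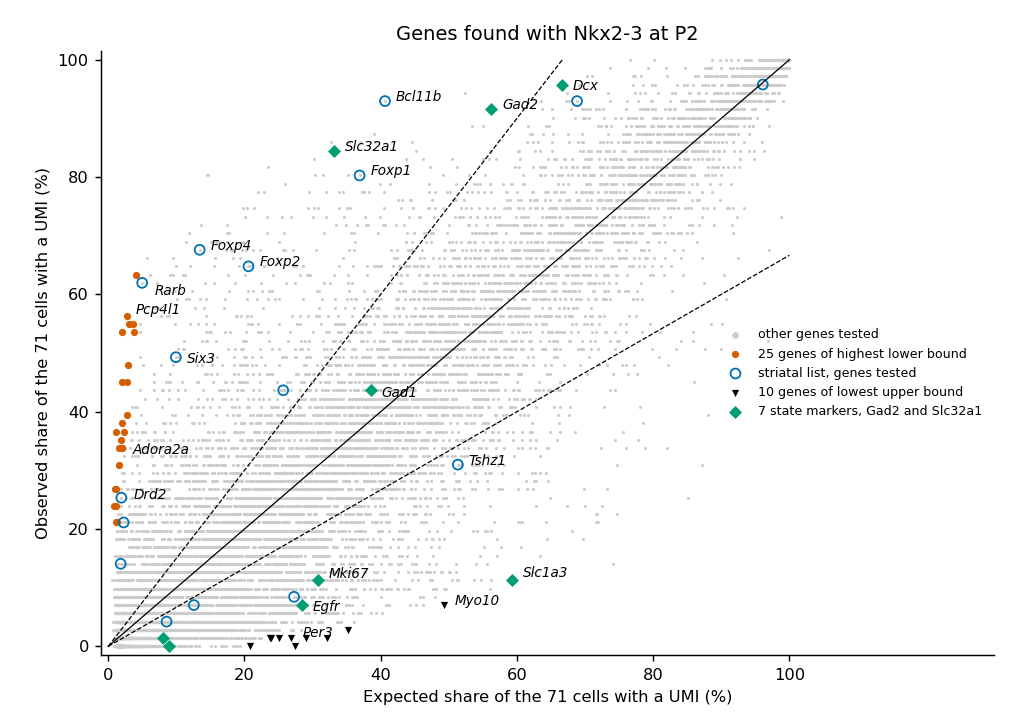
Observed against expected share (percent) of the 71 P2 cells with Nkx2-3 that had a UMI of each of 13610 genes, with lines at equality (solid) and at 1.5 times either way (dashed). The 25 leading genes (orange) stand at expected shares near 0 and observed shares of 21.1% or more, and 10 genes found least often (black) lie at 0 to 7.04%.

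Several of the leading genes code for receptors, peptides or channels. The adenosine receptor gene Adora2a, known from striatal neurons of the indirect pathway, was found in 24 cells (1.47 expected, 16.3 times, interval 11.1 to 22.2), with 49.3 CPM against 2.78 in the reference. Gpr6, an orphan receptor gene of the indirect pathway, was found in 19 cells (0.689 expected). The neuropeptide precursor gene Nts was found in 26 cells (1.64 expected) at 148 CPM against 7.37. Kctd8, an auxiliary subunit of GABA-B receptors, was found in 38 cells (2.69 expected), and the sodium channel gene Scn9a in 34 (2.02 expected).

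Others of the 25 genes spanned several functions. The kinase gene Dclk3 was found in 38 cells (1.47 expected, 25.9 times) and Pcp4l1 in 40 (1.93 expected, 20.8 times). Calcium and cytoskeleton genes included Caln1 (39 cells), Camkv (28), Fblim1 (27), Arhgdib (24) and Coro2a (22), each expected in 1.08 to 2.15 cells. Extracellular and guidance genes were Col6a1 (17 cells), Slit3 (15) and the Nogo receptor family gene Rtn4rl1 (19). Amn (39 cells), Grrp1 (25) and Fam43b (15) were others. Tunar was found in 17 cells (0.857 expected). The list also held genes annotated as lincRNAs: Gm14133 was found in 26 cells where 0.763 were expected (34.1 times, interval 23.7 to 45.5), Gm35281 in 32, 1500035N22Rik in 32 and Gm30382 in 24.

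For a list of 20 genes of the lateral ganglionic eminence and striatum, 16 passed the filter. Their median ratio was 2.23, beside 0.971 over all genes. Of the 16, 10 were called higher and 4 lower, beside 14.6% and 27.8% of all genes tested. The number lower on this list was thus near that over all genes. Among its transcription factors, Rarb, a retinoic acid receptor, was found in 44 cells (3.54 expected, 12.4 times), Foxp4 in 48 (5.04 times), Six3 in 35 (4.96 times) and Foxp2 in 46 (3.15 times). Bcl11b, needed for striatal projection neurons to mature, was found in 66 cells (28.8 expected) at 992 CPM against 89.9, and Foxp1 in 57 (26.2 expected) at 1671 CPM against 81.3. Isl1, a factor of direct pathway neurons, was found in 15 cells (0.42 expected) and Ikzf1 in 10 (0.263 expected), both too rare in P2 cells to pass the filter. Gsx2, a factor of lateral ganglionic eminence progenitors, was found in 6 cells (0.31 times) and Tshz1 in 22 (0.60 times), while Meis2 was found in 68 (68.2 expected). The enkephalin precursor gene Penk was found in none of the 71 cells (0.905 expected).

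Read the other way, the share of P2 cells with Nkx2-3 was 0.266% where 0 to 2 of the 20 striatal genes were found and 0.303% where 3 to 4 were. It was 0.787% with 5 to 6 genes, 6.35% with 7 to 8, 24.5% with 9 to 10 and 36.4% with 11 or more (8 of 22 cells, interval 17.2 to 59.3%). The intervals at 7 genes or more lay above that of the background in Sox10 cells (0.0100 to 2.18%). That background rests on 1 cell of 253, and its interval also holds the 1.76% over all P2 cells. It therefore cannot tell whether the shares at 6 genes or fewer differ from a background. Cells with more of these genes were also deeper, from a median of 13307 to 27048 UMIs. At a fixed 5000 UMIs a cell the share still ran from 0.117% with 0 to 1 gene to 18.8% with 8 or more (9 of 48 cells).

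**Figure D3:**
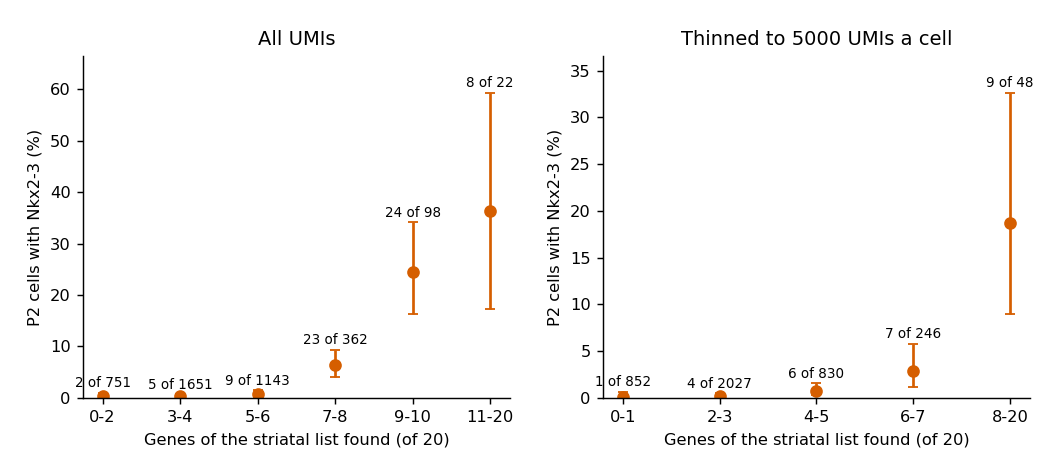
Share of P2 cells with Nkx2-3 (percent, with 95% exact binomial intervals and cell counts) against how many of the 20 striatal genes a cell had, from all UMIs (left) and after thinning to 5000 UMIs a cell (right). On the left the share lies under 1% up to 6 genes and reaches 24.5% and 36.4% at the right end.

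Among single genes, Nkx2-3 was found in 19 of 47 cells with Gpr6 (40.4%), 24 of 94 with Adora2a (25.5%) and 47 of 243 with Rxrg (19.3%). Genes of the indirect and the direct pathway were found in largely separate cells of the 71. At least 1 of Drd2, Adora2a and Gpr6 was present without the other set in 29 cells, at least 1 of Drd1, Tac1, Isl1 and Ebf1 in 16, both sets in 2 and neither in 24. Drd2 was found in 18 cells (1.37 expected) and Drd1 in 3 (0.764 expected, 3.93 times, interval 0.818 to 11.02). Among P2 cells, Nkx2-3 was found in 29 of 147 that had the indirect pathway set alone (19.7%, interval 13.6 to 27.1%) and in 16 of 165 that had the direct pathway set alone (9.70%, interval 5.64 to 15.3%), and the intervals overlapped. These sets were chosen after values had been seen. On a longer list of 8 direct pathway genes, 4 passed the filter, with 2 called higher and 1 lower. On a list of 7 indirect pathway genes, 6 passed, with 5 called higher and 0 lower. Over all genes 14.6% were called higher and 27.8% lower.

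Another 10 genes were named for being found least often. Of genes expected in at least 20% of the 71 cells, Per3, a circadian clock gene, was found in none (19.5 expected) and the cell surface proteoglycan gene Sdc4 in none (14.8 expected). Sall1 was found in 1 cell (22.8 expected), Gli3, the transducer of hedgehog signals, in 1 (19.1 expected), the astrocyte filament gene Gfap in 1 (17.0 expected), and Egln3, Akap13 and Loxl1 in 1 each. Dmrta2, a pallial factor, was found in 2 (24.97 expected) and Myo10 in 5 (35.0 expected). Gfap and Gli3 were in no cell once the called doublet was left out. All 10 pallial genes of the list, Emx1 and Pax6 among them, and all 10 dividing-cell genes were called lower, with median ratios of 0.181 and 0.380, beside 27.8% of all genes called lower and a median of 0.971. All 7 glutamatergic genes that passed the filter were called lower, and 7 of the 8 on the list had no UMI in any of the 71 cells.

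Markers of other cells were measured in the same way. The 6 microglial, 4 choroid plexus and 4 erythroid markers had no UMI in the 71 cells, of the 6 endothelial markers 5 had none and Pecam1 was in 2 cells (1.14 expected, called higher), and of the 4 mural markers 2 had none. The oligodendroglial list summed to 124 CPM in the 71 cells and 502 CPM in the reference, with Cspg4 at 0. At least 1 of its 8 genes was found in 35 of the 71 cells. Of the 8, 6 were called lower and 1 higher, beside 27.8% and 14.6% of all genes. The astrocyte list summed to 17.4 against 168 CPM, with S100b and Agt at 0. Genes of olfactory bulb interneuron subtypes were mixed, with a median ratio of 1.15. Of 13 that passed the filter, 6 were called higher and 5 lower, beside 14.6% and 27.8% of all genes. Etv1 was found in 13 cells (45.7 expected), Prox1 in 7 (17.4 expected) and Calb2 in 1 (6.40 expected), while Reln was found in 14 (1.55 expected) and Synpr in 40 (21.8 expected). Of 11 ventral factors that passed the filter, none was called higher and 8 lower, beside 14.6% and 27.8% of all genes. Zic1, on this list, was in no cell (9.18 expected). Nkx2-1 and Lhx6 were found in 1 cell each, in different cells. No other gene of the NK2, NK3 or Nkx6 groups was found in more than 1 of the 71 cells.

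The 71 cells were not all alike. They held a median of 13 of the 25 leading genes, but 18 cells had none and 47 had 5 or more, and only 4 cells had 3 to 6. Of the 48 cells with 1 Nkx2-3 UMI, 17 had none of the 25 genes and 25 had 5 or more, while of the 23 cells with 2 or more UMIs, 22 had 5 or more. The 25 genes were chosen on these cells, so the counts describe them and test nothing. In the reference, 3382 of 3956 cells had none of the genes and 100 (2.53%) had 5 or more, so that Nkx2-3 was found in 47 of 147 P2 cells with 5 or more of them (32.0%, interval 24.5 to 40.2%).

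**Figure D4:**
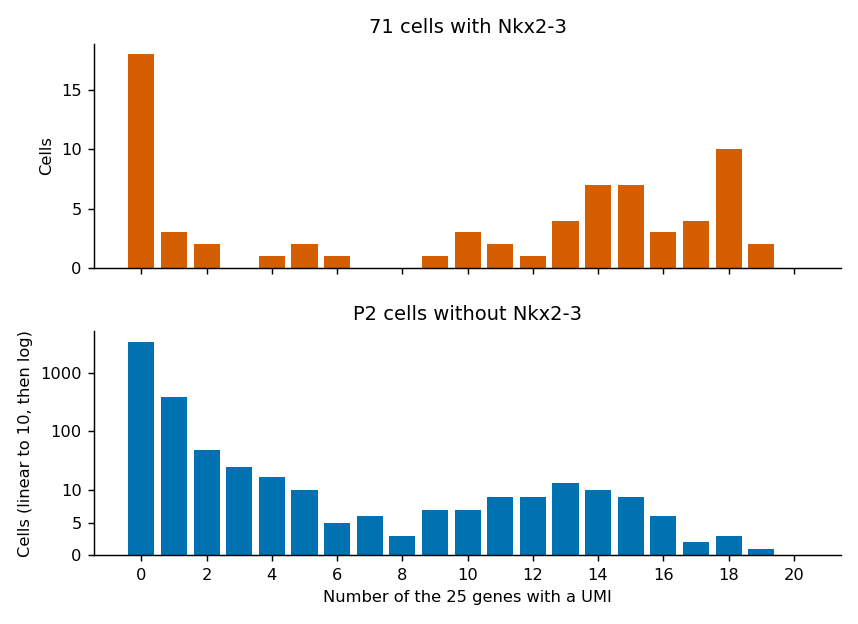
Number of cells (vertical axis) that held each number of the 25 leading genes (horizontal axis), for the 71 cells with Nkx2-3 (top, linear axis) and the P2 cells without it (bottom, axis linear to 10 cells and logarithmic above). Cells with Nkx2-3 gather at 0 genes and at 9 to 19, and cells without Nkx2-3 form a second, much smaller group at 9 to 16 genes, with single cells up to 19.

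The 47 cells with 5 or more of the genes and the 24 with fewer differed in their other markers as well. Foxp1 was found in 46 of the 47, with a median of 41 UMIs a cell, and in 11 of the 24, with a median of 0. Bcl11b had a median of 20 against 2 UMIs, and Gap43, a protein of growing axons, 40 against 2.5. Foxp1 reached 79 UMIs in 1 of the 24. The order was the opposite for Dlx1, found in 9 of the 47 and 22 of the 24, and for Dlx2, found in 6 and 22. Gad1 was at 23.9 CPM in the 47 cells and 127 CPM in the 24, and Gad2 at 131 and 445 CPM. Sp8 was at 4.15 and 59.2 CPM and Etv1 at 4.15 and 73.3 CPM. The 3856 cells with no Nkx2-3 and fewer than 5 of the genes had more Sp8 (176 CPM) and Etv1 (159 CPM) than the 24. They had less Gad1 (85.4 CPM), Gad2 (282 CPM), Foxp1 (31.1 against 406 CPM) and Bcl11b (63.4 against 395 CPM), at a median depth of 14119 UMIs. Median depth was 19523 UMIs in the 47 cells and 12714 in the 24, and the part of depth in these differences was not tested.

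The 100 reference cells with 5 or more of the 25 genes also had much Foxp1 and Bcl11b. Foxp1 was found in 95 of them with a median of 34 UMIs, Bcl11b in 98 with a median of 15.5, Dlx2 in 34 and Sp8 in 10. Their median depth was 17807 UMIs.

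**Figure D5:**
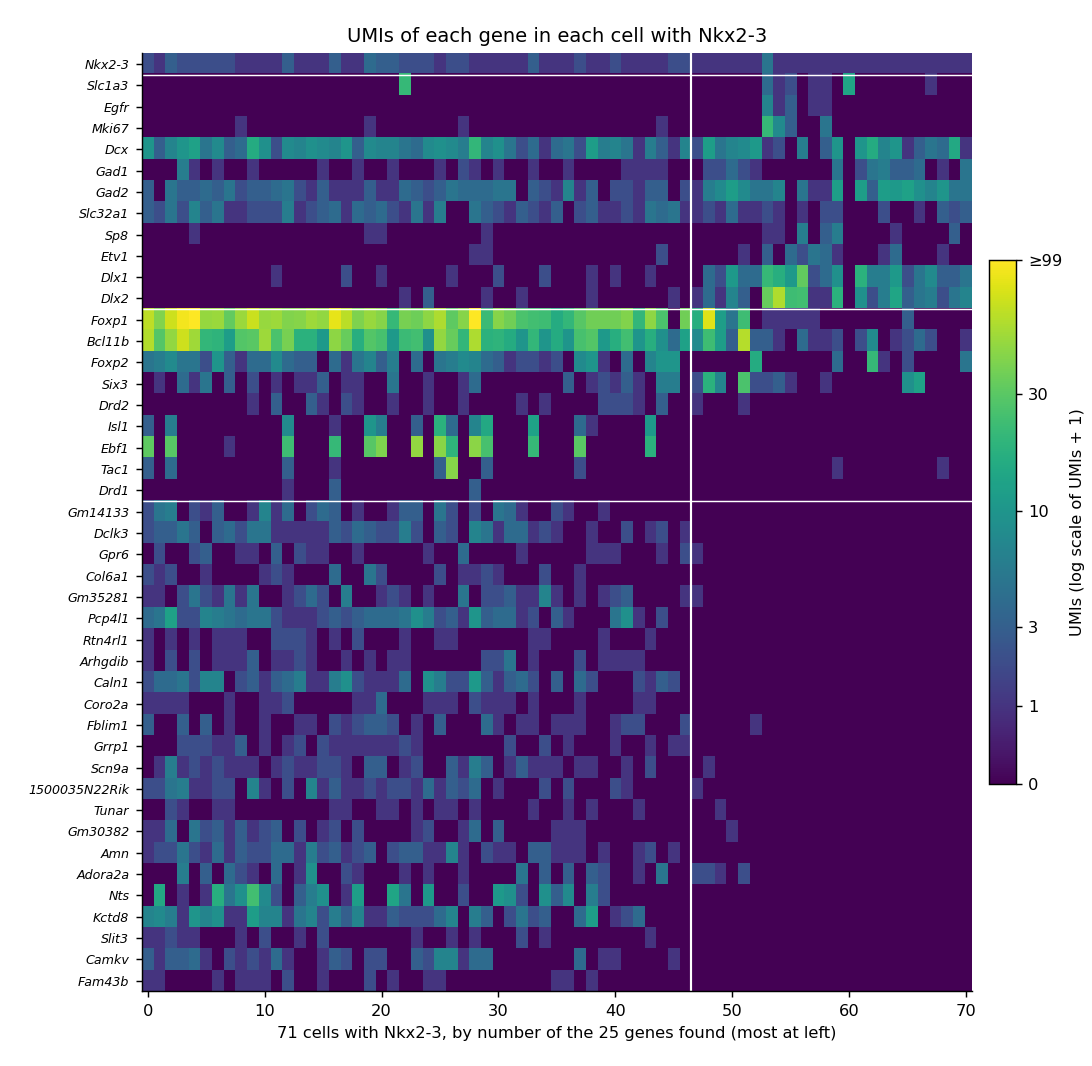
UMIs (colour, log scale of UMIs + 1) of Nkx2-3, state markers, striatal factors and receptors, and 23 of the 25 leading genes (rows) in each of the 71 P2 cells with Nkx2-3 (columns, ordered by how many of the 25 genes they held). To the right of the vertical line are the 24 cells with fewer than 5 of the genes. Most of these have Dlx1, Dlx2 and Gad2, and 11 have Foxp1. Isl1 and Ebf1 occur together in a subset of the cells at the left.

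All 5 cells with Egfr, the cell with Sox10 and the 3 cells without Dcx had none of the 25 genes. The cell with the most Nkx2-3, 5 UMIs among 39781, was a dividing cell with 21 UMIs of Mki67, 7 of Egfr and 4 of Slc1a3, and it too had none. Of the 8 cells with Mki67, the 4 with 5 or more of the 25 genes each had 1 Mki67 UMI, and the other 4 had 3 to 21. Of the 8 cells with Slc1a3, 1 had 15 of the genes and 21 Slc1a3 UMIs, and it was the cell called a doublet.

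The enrichment was next read within neurons alone. Among P2 cells with both Dcx and Gad2, which held 64 of the 71 cells, the 25 genes stood at 8.86 to 18.8 times expectation. In these cells 17.6% of 12867 genes were called higher. Gm14133, Gpr6, Col6a1, Rtn4rl1 and Slit3 passed the 1% filter only through the 71 cells, and without them the highest was 16.5 times (Tunar). The 25 genes were picked on these same cells, so this is a description. Gad1 was there found less often than expected (31 cells, 44.0 expected, 0.70 times), and so were Dlx1 (0.50 times), Dlx2 (0.42 times), Sp8 (0.23 times) and Etv1 (0.24 times). With the expectation taken within each state and depth class, the 23 of the 25 genes described above stood at 4.86 to 10.0 times. Over all genes 13.1% were called higher. Without Gm14133, Gpr6, Col6a1, Rtn4rl1 and Slit3 the highest was 8.13 times (Tunar). Of the 25 genes that led under this expectation, Acvr1c, Gpr26, Pde7b, Hgs, Rxrg, Ebf1, Zfp503, Rarb and Nipal2 were not among the first 25. Of these, Gpr26 and Hgs were in 36 and 35 reference cells and passed the filter only with the 71 cells counted in.

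Cells with Rxrg but no Nkx2-3 were compared next. Among the 243 cells with Rxrg, of which 47 had Nkx2-3, 9.14% of 11211 genes were called higher and 19.3% lower. The 25 leading genes stood at 1.70 to 3.89 times expectation there, with a median of 2.09. The genes of the highest lower bound were AC161165.3 (11 cells, 2.44 expected), Cacng3, a regulator of AMPA receptors (19 cells, 5.28 expected), Slit3 (15 cells, 3.86 expected) and Gm14133 (26 cells, 8.396 expected). Found least often were Metrn (0 cells, 17.5 expected), Myo10 (0 cells, 16.2 expected) and the glial gene Slc1a3 (1 cell, 20.0 expected). The chromatin remodeller gene Chd7 was found in 1 cell (17.6 expected). Dcx was found in all 47 cells where 35.2 were expected, so this reference was partly not neuronal, and the part of its makeup in the ratios was not tested. This comparison was added after the values had been seen.

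The leading genes were also described separately in the cells with Y-linked and with Xist transcripts. The 25 genes of the highest lower bound were chosen again in the cells with a Y-linked UMI and no Xist, which held 45 of the 71, and read in the cells with Xist and no Y-linked UMI, which held 15 (the members themselves were picked by the same rule in both). All 25 were found more often than expected in the 15 cells, 15.8 to 186.5 times, with a median of 23.5 times, where 21% of 13595 genes were called higher. Chosen in the 15 cells and read in the 45, all 25 were again higher, at 6.58 to 24.6 times with a median of 14.1, where 16.2% of 13728 genes were called higher. Both sets of cells came from the same library. The readings in the 15 cells rest on few cells: the highest ratio was that of Isl1, with 2 cells (0.0107 expected), Coch and Ptk2b were in 2 cells each and Col6a1 in 1. Isl1 was in 34 P2 cells, 15 of them with Nkx2-3. It can reach 1% of the 2076 cells with a Y-linked UMI only with the Nkx2-3 cells counted in. Over all P2 cells the same held for Col6a1, Gpr6, Gm14133 and Rtn4rl1, which were chosen there too. The place of these genes on that list is thus a description.

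Nkx2-3 was rarer at the later ages. It was found in 1 of 7006 and 2 of 4596 cells of the P12 libraries (0.0143% and 0.0435%) and in 3 of 4231 P22 cells (0.0709%, interval 0.0146 to 0.207%). At 5000 UMIs a cell the shares were 0 of 6919, which allows up to 0.0434%, then 1 of 4518 and 2 of 4184, beside 27 of 4003 at P2. Most of the counted cells were unlike most of those at P2. All 3 P12 cells and 2 of the 3 at P22 had 14 to 58 UMIs of Slc1a3. These cells had no Dcx, Gad1 or Gad2 and none of the 25 genes. At P2, 1 cell with Nkx2-3 had the same profile, with 14 UMIs of Slc1a3. Of the Slc1a3 cells at the later ages, 1 at P12 and 1 at P22 had 3 Nkx2-3 UMIs, and the others had 1. The third P22 cell also had 3 Nkx2-3 UMIs, with no Slc1a3 and 15 of the 25 genes. Its 44918 UMIs held 10 of Drd2, 31 of Adora2a, 35 of Penk and 68 of Ppp1r1b, a phosphoprotein of mature striatal projection neurons. It was 1 of 12 P22 cells with 5 or more of the 25 genes (8.33%, interval 0.211 to 38.5%), and each P12 library had 1 such cell, without Nkx2-3. Cells with 5 or more of the genes were 0.284% of P22 cells and 3.65% of P2 cells. The genes were picked at P2 on the cells with Nkx2-3, so the P2 share is high in part by construction. Among P2 cells without Nkx2-3 it was 2.53%. For cells with none of the 25 genes, the Sox10 background at P2 cannot place the share with Nkx2-3, since it rests on 1 cell of 253. Among such cells, 0.529% had Nkx2-3 at P2 (18 of 3400, interval 0.314 to 0.835%) and 0.0523% at P22 (2 of 3827, interval 0.00633 to 0.189%). Ages were single libraries at P2 and P22, so age and library cannot be told apart.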

How the data were processed

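Dorsal V-SVZ cells of P2, P12 and P22 mice were captured with 10x Genomics 3′ chemistry. The deposited values were whole-number UMI counts per gene and barcode, which the authors made with Cell Ranger (5.0.1 for P2 and P22 per the file headers, 3.1.0 for P12) on mm10. The authors used Seurat 3 downstream. Libraries held 4608 to 8617 barcodes, and 4027 to 7006 cells were kept (2000 to 8000 genes, mitochondrial UMIs under 10%), with median depths of 11851.5 to 14303 UMIs.

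Expected numbers came from P2 cells without Nkx2-3 in 10 depth classes. The comparisons within states, within cells with Rxrg and within cells split by Xist and Y-linked UMIs used 3 classes, which match depth less closely. Genes found in at least 1% of P2 cells were compared at a fold of 1.5. The 25 named genes had the highest lower bound of the ratio of observed to expected, and 10 had the lowest upper bound among genes expected in at least 20% of the cells. Intervals are exact at 95%, take the expectation as fixed and cover counting error only. A count of 0 was given a limit of 3 counts. Scrublet (scanpy 1.11.5) marked doublets, which were kept, and at 0.0653% of cells it had not worked in 1 P12 library. Scripts used Python 3.11.15, numpy 2.4.6, scipy 1.17.1, pandas 2.3.3 and matplotlib 3.10.9, and were tested on simulated data. With 1 library at P2 no test was made. Cells, gene lists and comparisons were chosen with earlier results of these data known. The lists of shared striatal, direct and indirect pathway, retinoid, receptor and neighbouring genes, and the division at 5 of the 25 genes, were added after values were seen. Some genes, 2 of the 25 among them, are not reported here. Alternatives changed the cell filter, depth classes, UMI threshold, gene filter, thinning, doublets and the cells compared.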

Additional observations from a re-analysis of the deposited data

How the results depend on the processing

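The share of P2 cells with Nkx2-3 was 0.571% when 2 UMIs were required, 0.674% at 5000 UMIs a cell and 1.21% in cells with Xist and no Y-linked UMI. The ratio for Dcx was 1.62 for cells with 2 or more UMIs, 1.04 with the expectation within state and depth, 1.505 in the Xist cells and 1 in cells with Dcx and Gad2, where it is fixed by construction. The ratio for Gad1 was 0.81 with 2 or more UMIs and 0.70 in cells with Dcx and Gad2. Genes called higher numbered 1241 at a 5% gene filter, where fewer genes were tested, and 1025 in cells with Rxrg, where 2165 were called lower. Where not given, the cause was not tested. The 25 leading genes stayed at 1.5 times expectation or more under each of these alternatives, lowest in cells with Rxrg (1.70 to 3.89 times). They were picked for high ratios in the same cells, which most alternatives largely kept. Staying above 1.5 was thus largely set in advance and does not test the list. Gm14133, Gpr6, Col6a1, Rtn4rl1 and Slit3 also passed the 1% filter only through the 71 cells. Leaving out either P12 library gave 0.0143% and 0.0435%. Depth limits the choice of cells, since 48 of the 71 rest on 1 UMI. No paired analysis was possible because P2 was 1 library and no comparison between groups was tested.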

Other observations

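Genes of retinoid signalling, a list added after values were seen, were uneven in the 71 cells. Beside Rarb, its partner receptor gene Rxrg was found in 47 cells (4.02 expected), while Rara was found in 11 (11.1 expected) and Rxra in 2 (3.95 expected). Of the 11 genes that passed the filter, 5 were called higher and 3 lower, beside 14.6% and 27.8% of all genes tested. The synthesis genes Aldh1a1 and Aldh1a2 were found in none of the cells, and Aldh1a3 in 3.

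Of 29 glutamate and GABA receptor genes that passed the filter, also a list added later, 21 were called higher and 4 lower. Over all genes 14.6% were called higher and 27.8% lower. The median ratio of the 29 was 2.50, beside 0.971 over all genes. The GABA-A subunit gene Gabra5 was found in 39 cells (3.27 expected), the AMPA receptor gene Gria1 in 45 (6.40 expected) and the metabotropic glutamate receptor gene Grm5 in 50 (8.44 expected). Gabrg1, Gabrb1, Gabra4 and Grin3a were called lower. Among 17 migration and guidance genes, 7 were called higher and 4 lower, beside 14.6% and 27.8% of all genes. The share lower was not above that over all genes. The ephrin receptor gene Epha7 was found in 42 cells (8.08 expected) and the Slit receptor gene Robo1 in 42 (12.1 expected), while Dab1, which relays the Reelin signal, was found in 8 (31.7 expected) and the neuroblast migration receptor gene Prokr2 in 4 (9.50 expected).

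Among other homeobox genes, Pou3f1 was found in 39 cells (8.49 expected) and Zfhx3 in 48 (13.99 expected), while Zeb2 was found in 18 (60.4 expected) and Otx1 in 2 (19.2 expected). Genes next to Nkx2-3 on chromosome 19 were near expectation, with Slc25a28 at 1.07 and Entpd7 at 1.03 times. Of the 6 that passed the filter, none was called higher and Hps1 was called lower (0.53 times). Over all genes 14.6% were called higher and 27.8% lower.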
